A study of Mus musculus with 1457 samples.

Results

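Hemogenic endothelium (HE) was compared with endothelium (Endo) in single cells of the aorta-gonad-mesonephros region of ICR mouse embryos at E11.5 (the embryonic day). Cells were taken where the sample title and the stage field both gave E11.5, which held for 40 HE and 16 Endo cells. After cells with under 100000 reads, or with 1% or more of their reads in 7 globin genes, were left out, 36 HE and 14 Endo libraries remained, 50 of the 1457 of the series. All embryos were Gfi1:Tomato/WT Gfi1b:GFP/WT, so both sorts carried 1 reporter allele at each of these loci. Both sorts were gated as CDH5+ cells without TER119, CD41, CD45, KIT or the GFI1b reporter. HE cells carried the GFI1 reporter and Endo cells did not. No label named an embryo, so the cells of a sort counted as 1 sample, differences have no replicate check, and no test was possible.

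Some libraries were close copies of each other and were taken as repeat libraries of 1 cell. Among 321 libraries with at least 10000 reads, 6 pairs had a Pearson r of 0.982 to 0.993 over genes in log2(CPM + 1), where CPM is reads per 1000000, and the next pair stood at 0.753. The paired counts still differed by more than read sampling gives (chi-square over its degrees of freedom 1.80 to 5.47). In 3 pairs both libraries were labelled HE, and their reads were added together. One HE library matched a library labelled as a cluster cell, so the labels disagree on its sort and both were left out. Another HE cell matched a library with the same title stage and a stage field of E10.5, and the HE library was kept alone. The remaining pair joined an HE library that had not passed the filters to a cluster cell. This left 32 distinct HE cells and 14 Endo cells, 46 in all, on which every value below rests, and the threshold for a repeat was set after the data were seen.

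Hemogenic endothelium is the part of the vessel wall that gives rise to blood cells. In the dorsal aorta it lies within arterial endothelium, whose identity depends on Notch signalling, while venous endothelium is specified by the transcription factor NR2F2. Cells leaving the wall switch on RUNX1 and its targets GFI1 and GFI1B, lose endothelial genes and bud into intra-aortic hematopoietic clusters (IAHC).

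HE cells were sorted on the GFI1 reporter, so more Gfi1 reads in HE than in Endo followed from the gate. Gfi1, a transcriptional repressor of the endothelial programme, was read in 17 of 32 HE cells (53.1%, exact 95% interval 34.7 to 70.9%) and in 0 of 14 Endo cells, where a count of 0 is compatible with a share of up to 21.4%. At 10 CPM or more, 14 of 32 HE cells had neither Gfi1 nor Runx1, so HE is used here as the name of the sort. Cdh5, the endothelial cadherin of the gate, was read in all 32 and all 14 cells. In every kept cell, 16 or more of the 20 pan-endothelial genes were read. KIT was gated out in both sorts, yet Kit, the stem cell factor receptor, was read in 13 HE and 12 Endo cells, with 168.3 CPM in HE (from the summed reads of the sort) and 115.995 CPM in Endo. Itga2b, which encodes CD41, was read in 7 HE and 3 Endo cells. Gfi1b and Ptprc, which encodes CD45, were each read in 1 HE cell and in 0 Endo cells.

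Depth and the shares of cells with Xist and with Y-linked reads differed between the sorts. Kept HE cells had 1064418 to 4959612 reads (median 2.60e+06) and kept Endo cells 1631023 to 5101878 (median 3.06e+06), in sums of 85259205 and 45062170 reads. The median number of genes read was 6206 in HE and 7067.5 in Endo cells, and 4932.5 and 5571 after each cell was thinned to 100000 reads. Xist, the RNA of the inactive X chromosome, had at least 10 reads in 1 of 32 HE and 5 of 14 Endo cells. Y-linked genes had at least 10 reads in 27 HE and 8 Endo cells, among them 1 Endo cell that also had Xist. These 2 thresholds were chosen after the values were seen. In 4 HE and 2 Endo cells neither threshold was reached. The sorts may thus not have been drawn in equal parts from the same embryos, which was not tested. Gate and embryo cannot be told apart.

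Promoters are shown for Neurl3 and Hey2, the HE gene of the ubiquitin ligase family and the Notch target described below, each 250 bases before to 50 after the gene start, 5′ to 3′, from RefSeq on GRCm38.p6. The 4 motifs were searched on both strands: TGTGGT for RUNX, TGGGAA for RBPJ, AGATAA for GATA and AGGTCA for NR2F. Capitals mark the matches. They are 1 match for GATA and 1 for NR2F in Neurl3 (chr1:36273376-36273675, minus strand) and 2 matches for RBPJ in Hey2 (chr10:30842734-30843033, minus strand).
Neurl3: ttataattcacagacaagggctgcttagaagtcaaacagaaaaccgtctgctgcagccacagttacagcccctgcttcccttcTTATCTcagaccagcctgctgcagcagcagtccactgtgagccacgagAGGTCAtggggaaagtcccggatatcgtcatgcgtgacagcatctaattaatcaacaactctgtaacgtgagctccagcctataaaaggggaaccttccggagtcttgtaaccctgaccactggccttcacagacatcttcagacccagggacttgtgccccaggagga
Hey2: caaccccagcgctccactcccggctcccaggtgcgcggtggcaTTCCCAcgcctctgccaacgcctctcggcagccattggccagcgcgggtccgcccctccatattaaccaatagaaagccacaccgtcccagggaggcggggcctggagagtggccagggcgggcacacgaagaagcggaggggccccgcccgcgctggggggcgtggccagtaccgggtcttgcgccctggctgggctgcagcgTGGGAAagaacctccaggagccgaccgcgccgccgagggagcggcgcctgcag

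Of 27025 promoters of this length, 25.5% held the RBPJ motif, 16.9% the RUNX motif, 16.04% the NR2F motif and 11.4% the GATA motif. Of the 15 genes highest in HE, 13 had a promoter in the table, of which 4 held the RBPJ motif, 3 the NR2F motif, 2 the RUNX motif and 1 the GATA motif. Of the 15 lowest genes, 12 had a promoter, with 3, 3, 3 and 0 in the same order. With so few promoters these counts are a description. A match describes letters in a window, and no binding was measured.

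The 4 marker genes given for this comparison were Gja5, Gfi1, Cxcl12 and Aplnr, chosen with results of these data known. Gja5 encodes connexin 40, the gap junction protein of arterial endothelium (chr3:96904693-97077416 on GRCm38). It ranged from 0 to 3026 CPM over HE cells (median 486) and was at 10 CPM or more in 28 of 32. In Endo it ranged from 0 to 2863 CPM (median 0), with 1 cell of 14 at 10 CPM or more. That Endo cell held 99.9% of the Gja5 reads of its sort. Summed over cells, Gja5 was at 791 CPM in HE and 103.7 CPM in Endo, 7.63-fold (95% counting interval 7.41 to 7.86). Without that cell the other 13 Endo cells held 3 reads, and the log2 ratio (1 CPM added to both sides, as in all log2 ratios here) went from 2.92 to 9.53.

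Aplnr encodes the apelin receptor, a marker of venous and capillary endothelium (chr2:85136225-85139923). It ranged from 0 to 3194 CPM over Endo cells (median 1464) and was at 10 CPM or more in 13 of 14. In HE cells the highest value was 0.22 CPM, from 1 read in 32 cells. The sums were 1355 CPM in Endo and 0.01 CPM in HE, which is 115550-fold with a counting interval of 20738 to 4564070. The 1 Endo cell without Aplnr reads was the cell with Gja5.

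Cxcl12, a chemokine made by arterial endothelium and stroma (chr6:117168535-117181367), was less widespread. It was at 10 CPM or more in 8 of 32 HE and 0 of 14 Endo cells, with a highest value of 746 CPM in HE and 8.58 CPM in Endo. Its sum was 110.7 CPM in HE and 0.31 CPM in Endo. Gfi1 (chr5:107716657-107726036) ranged from 0 to 449 CPM over HE cells (median 5.88) and summed to 78.9 CPM. Since Endo held no Gfi1 read, 3 reads over the sort were taken as the floor, as for all genes at 0. By that floor the summed HE level was at least 1185-fold higher. Such a bound covers the counting of reads only, and does not cover the spread over the 14 Endo cells.

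**Figure D1:**
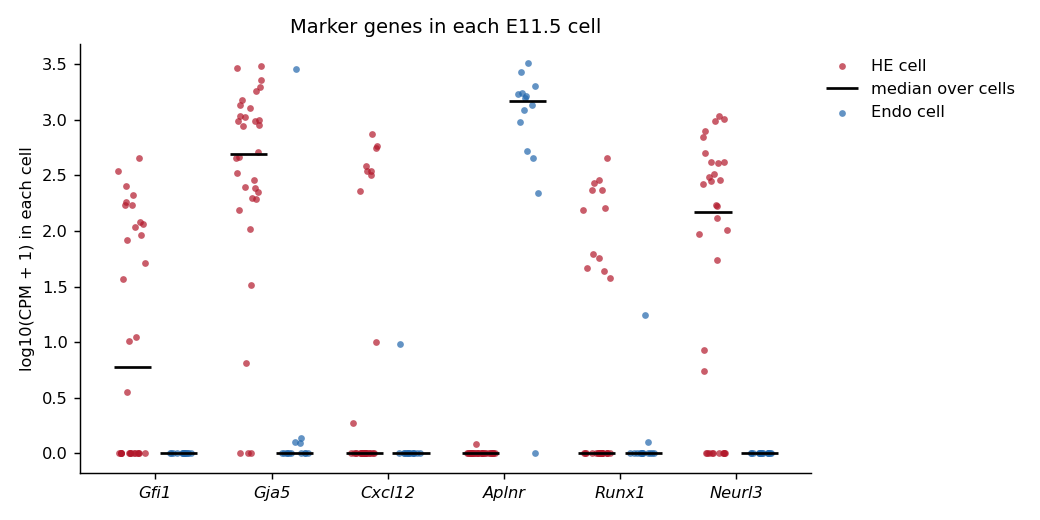
Each point is 1 cell, with log10(CPM + 1) on the vertical axis and 6 genes on the horizontal axis (32 HE cells in red, 14 Endo cells in blue), and black lines are medians over cells. Aplnr was high in 13 Endo cells, and the only Endo cell high in Gja5 was the 1 at 0 for Aplnr.

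Over all genes, 9172 were expressed, meaning at least 5 CPM in the higher sort with reads in 25% or more of its cells. Of these, 1582 (17.2%) were at least 2-fold higher in HE and 1285 (14%) at least 2-fold lower, by the summed reads and by the mean over cells. The median log2 ratio of expressed genes was 0.01. These shares are the background for each gene group below. A single gene of the 9172, Gng2, had per-cell ranges that did not overlap. Gng2, a G protein gamma subunit, was at 5.29 to 379 CPM in the 14 Endo cells (median 104.4) and at 0 in all 32 HE cells.

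The genes with the highest HE to Endo ratios were led by Akr1c14, Adgrg1 and Neurl3. Neurl3, a ubiquitin ligase of the Neuralized family (chr1:36264597-36274679), was read in 22 of 32 HE cells (68.8%, interval 49.99 to 83.9%) and in 0 of 14 Endo cells. It ranged from 0 to 1078 CPM over HE cells (median 147.9). Its sum of 278 CPM was at least 4179-fold above Endo by the floor of reads, without the spread over cells. Adgrg1, an adhesion G protein-coupled receptor found on blood stem cells, was read in 27 HE cells, at 348 CPM in HE and 0.04 CPM in Endo (2 reads). Akr1c14, a hydroxysteroid dehydrogenase, was read in 26 HE and 0 Endo cells, with 519 CPM in HE.

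Krt18, Ocln and Agr2 were also among the 15 highest. Krt18, a keratin of simple epithelia, was read in 28 HE cells (median 120.4 CPM, highest 595) and in 1 Endo cell, the Gja5 cell, at 11.04 CPM. Ocln, a tight junction protein, was read in 19 HE cells at a sum of 130.9 CPM and in 0 Endo cells. Agr2, a secretory disulfide isomerase, was read in 15 HE cells at 116.02 CPM and in 0 Endo cells.

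Others of the 15 highest were Fbln2, a matrix glycoprotein (211.015 CPM in HE), Clec4e, a lectin receptor of myeloid cells (177.1 CPM), Tmem26 (144.7 CPM) and Pdzk1ip1, a small membrane protein (136.4 CPM). Aqp1, a water channel, had 119.002 CPM, Nupr1, a stress-induced nuclear protein, 113.5 CPM, Slc7a8, an amino acid transporter, 112.6 CPM, and Tnfrsf26, a TNF receptor family member, 154.8 CPM. All had under 1 CPM in Endo. Several were mosaic: Clec4e was read in 11 and Tmem26 in 11 of 32 HE cells, against 27 for Pdzk1ip1. The next gene in order, just outside the 15, was Acta2 with a log2 ratio of 6.75, against 6.78 for Tnfrsf26.

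By the 2-fold rule arterial genes were higher in HE with few exceptions in this pair of sorts, and in fewer cases at E10.5. In the pair of disagreeing stage labels none was. At E10.5, 9 of 19 expressed arterial genes were at least 2-fold higher in HE and 0 lower (median log2 ratio 1.22). Among all genes expressed at E10.5, 6.39% were higher and 4.34% lower. In the pair titled E11.5 with a stage field of E10.5, 0 of 20 arterial genes were higher and 1 lower (median 0.44). There 5.05% of all expressed genes were higher and 6.58% lower. The values that follow are of the E11.5 pair whose labels agree. Of 20 arterial genes 19 were expressed, 16 of them (84.2%) at least 2-fold higher in HE and 0 lower, with a median log2 ratio of 2.51. Gja4, which encodes connexin 37, ranged from 0 to 4604 CPM over HE cells (median 1868) and from 0 to 1064 CPM over Endo cells (median 0). Bmx, a tyrosine kinase of arterial endothelium, had 182.1 CPM in HE and 4.19 CPM in Endo, where 1 cell, the Gja5 cell, held 99.5% of the reads and the other 13 had 0.02 CPM. Sox17, a transcription factor of arterial identity, had 454 and 86.9 CPM, and Efnb2, the arterial ephrin, 452 and 78.4 CPM. Without the Gja5 cell the Endo sums were 1.82 CPM for Gja4, 61.3 CPM for Sox17 and 48.2 CPM for Efnb2. Notch1, Notch4 and Acvrl1 differed by 1.09- to 1.56-fold.

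Most expressed venous and lymphatic genes were lower in HE. Of 11 expressed members 7 were at least 2-fold lower and 1 higher, with a median log2 ratio of -3.45, or -3.84 with genes at 0 set to the floor. Nr2f2 was at 35.2 CPM in the median Endo cell (range 0 to 445, read in 12 of 14) and at 0 in all 32 HE cells. By the floor of reads, without the spread over cells, the HE sum was at least 2567-fold lower. Nrp2, a co-receptor for lymphatic growth factors, was read in 13 Endo cells and 1 HE cell. Flt4, the VEGFC receptor, was read in all 14 Endo cells (92.3 to 822 CPM) and in 15 HE cells, 6.50-fold lower in HE by the sums. Vwf went the other way, at 2367 CPM in HE (727 to 5267 in single cells) and 225.6 CPM in Endo, or 74.8 CPM without the Gja5 cell. Without HE cell 28, the only HE cell with Lyve1 reads, the list median was -5.43.

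In single cells the 2 groups of genes divided the sorts. The summed CPM of 8 arterial markers exceeded that of 6 venous markers in 32 of 32 HE cells and in 1 of 14 Endo cells. Gja5 is among the 8 and Aplnr among the 6, both chosen with results of these data known. The split of the sorts is therefore in part built in by that choice. The arterial sum had a median of 5161 CPM in HE and 174.8 CPM in Endo, and the venous sum 926 and 3506 CPM. The exception was the Endo cell with Gja5, which held 1098 CPM of Hey1, 1064 CPM of Gja4, 604 CPM of Dll4 and 0 of Gfi1. Without it the arterial median log2 ratio was 3.43, with 16 of 19 genes at least 2-fold higher. The HE against Endo comparison of these cells therefore set GFI1-reporter cells rich in arterial genes against a sort with 1 such cell in 14. Reporter status and arterial or venous type cannot be told apart here.

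**Figure D2:**
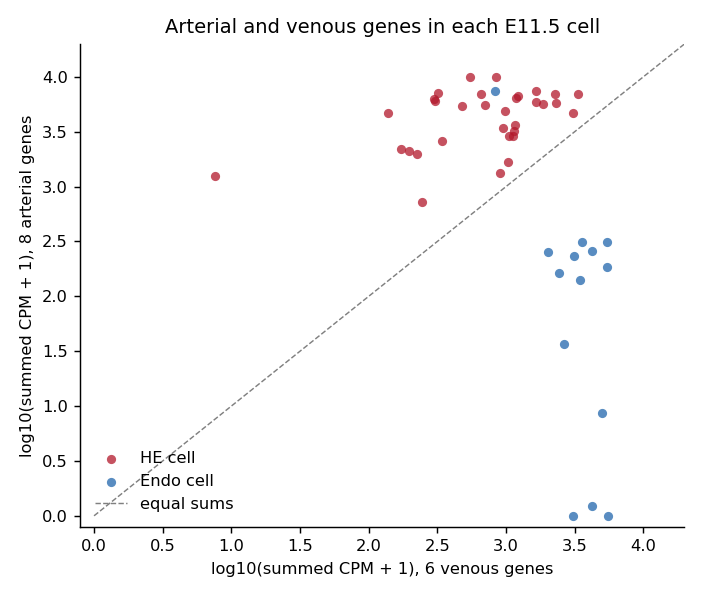
Each point is 1 cell, with the log10 of summed CPM (1 added) of 6 venous genes on the horizontal axis and of 8 arterial genes on the vertical axis, and the dashed line marks equal sums. All 32 HE cells and 1 Endo cell lie above the line, and 13 Endo cells below it. Gja5 is among the 8 arterial and Aplnr among the 6 venous genes.

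Notch pathway genes were higher in HE at several steps of the pathway. Of 16 expressed members 10 were at least 2-fold higher and 0 lower, with a median log2 ratio of 1.48. Among ligands, Jag1 had 656 CPM in HE and 62.8 CPM in Endo, Jag2 69.6 and 5.33 CPM, and Dll4 254.4 and 57.7 CPM. In Endo much of this lay in the Gja5 cell: without it Jag1 was at 30.4 CPM, Jag2 at 0.28 CPM and Dll4 at 37.2 CPM. Among receptors, Notch3 had 116.3 CPM in HE and 8.01 CPM in Endo (5.20 CPM without that cell), while Notch1 had 396 and 324 CPM. Among targets, Hey2 was read in 23 HE cells (median 317 CPM, highest 1050) and in 1 Endo cell, and Hey1 in 28 HE cells and the same Endo cell. Hes1, another Notch target, was at 91.1 and 57.1 CPM. The list had 10 of 16 genes higher without the Gja5 cell as well, with a median of 1.44. Jag1, Jag2, Dll4, Hey1, Hey2, Notch1 and Notch4 stand in the arterial list as well.

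Hematopoietic transcription factors were higher in HE, in part of the cells. Of 21 expressed genes 14 were at least 2-fold higher and 0 lower, with a median log2 ratio of 2.31. Gfi1, whose difference followed from the gate, is among the 14. Runx1, the factor required for blood cell emergence, was at 10 CPM or more in 12 of 32 HE cells (highest 446 CPM) and in 1 of 14 Endo cells (16.6 CPM). Spi1, the myeloid factor PU.1, was read in 12 HE and 0 Endo cells, and Ikzf2, an Ikaros family member, in 18 and 0. Hlf, a factor of blood stem cells, had 27.8 CPM in HE and 0.07 CPM in Endo (3 reads). Others were broad in HE: Mecom (16.97 to 1429 CPM) and Gata2 (11.1 to 838 CPM) were read in all 32 cells, at 8.88- and 4.80-fold the Endo sum. Tal1, Fli1, Lmo2, Hhex, Etv6, Cbfb and Mycn stayed under the 2-fold limit in 1 or both measures.

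Expressed surface and signalling genes of blood cells were more often higher than lower, but most of the list was not expressed. Of 31 genes 17 were not expressed by the rule, with 8 of the 31 at 0 in HE and 12 at 0 in Endo. Of 14 expressed genes, 9 were at least 2-fold higher and 2 lower, with a median log2 ratio of 3.28. Procr, the protein C receptor, was read in all 32 HE cells (102.02 to 2268 CPM) and summed to 880 CPM in HE and 87.2 CPM in Endo. Cd44, a hyaluronan receptor, had 194.9 and 5.99 CPM, and Coro1a, an actin regulator of leukocytes, 108.4 and 0.47 CPM. Lcp1, an actin-bundling protein, had 75.6 CPM in HE and 282 CPM in Endo, and Hcls1 1.49 and 23.4 CPM.

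Which genes were read together was counted over the HE cells. At 10 CPM or more, Gja5 was present in 28 of 32 HE cells, Adgrg1 in 26, Neurl3 in 20, Gfi1 in 15, Kit in 12 and Spi1 in 11. Gja5 and Adgrg1 were thus present in most HE cells, and overlap with them says little. Runx1 was present in 12 cells, of which 12 also had Adgrg1, 11 had Neurl3, 9 had Spi1 and 9 had Gfi1. Cxcl12 was present in 8 cells, of which 1 had Runx1, 1 had Kit, 2 had Gfi1 and 3 had Neurl3. All 8 had Gja5, which was present in 8 of the 12 Runx1 cells. Acta2, the smooth muscle actin, was present in 10 HE cells, all with Gja5, of which 2 had Runx1. These counts describe 32 cells, were picked after values were seen, and carry no test.

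Cell cycle genes were lower in HE. Of 20 mitosis genes 19 were at least 2-fold lower and 0 higher, with a median log2 ratio of -2.40 (-3.25 without HE cell 1). Ccnb1, a mitotic cyclin, was read in 4 of 32 HE and 10 of 14 Endo cells, with 34.35 and 316 CPM. Kif11, a spindle motor, was read in 2 HE and 8 Endo cells, with 16.9 and 183.99 CPM. A cell had a median of 2 of the 20 genes at 10 CPM or more in HE and 17 in Endo, and 6 HE cells had none. With every cell thinned to 100000 reads, 10 or more mitosis genes were read in 3 of 32 HE cells (9.38%, interval 1.98 to 25.02%) and in 9 of 14 Endo cells (64.3%, interval 35.1 to 87.2%). Unthinned, the cells past this mark numbered 3 and 9 as well.

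DNA replication genes followed, with 14 of 20 at least 2-fold lower in HE, 0 higher and a median log2 ratio of -1.44. Tyms, thymidylate synthase, had 29.3 CPM in HE and 267.3 CPM in Endo, and Rrm2, a ribonucleotide reductase subunit, 46.1 and 285 CPM. The Rrm2 reads of HE came from 4 cells, and 1 of them held 79.5%. Of 3 expressed cyclin-dependent kinase inhibitors, 2 were at least 2-fold higher in HE: Cdkn1c, at 230.1 CPM in HE and 97.8 CPM in Endo, and Cdkn2d, at 36.5 and 12.7 CPM.

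**Figure D3:**
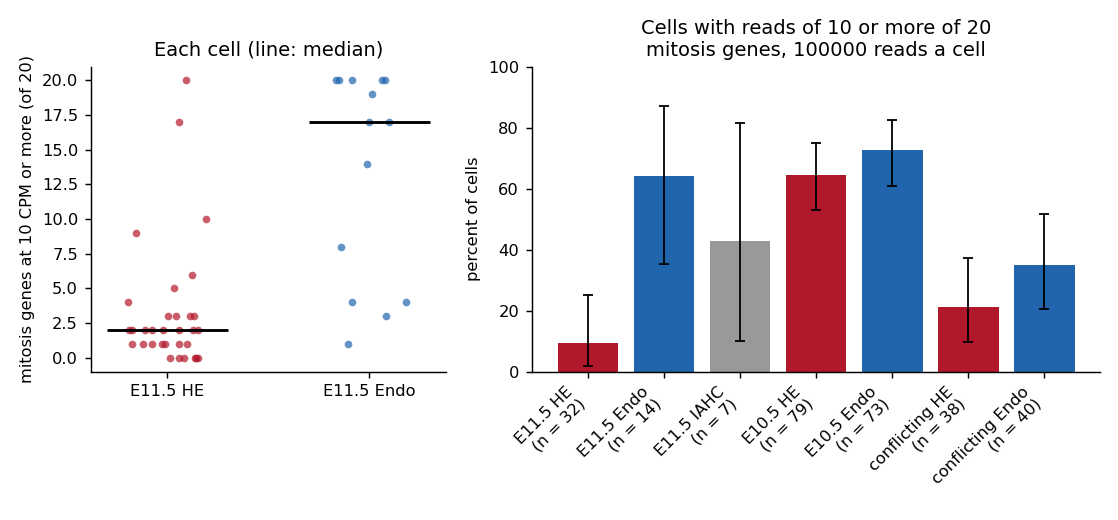
Left, number of 20 mitosis genes at 10 CPM or more in each E11.5 cell, with medians of 2 in HE and 17 in Endo. Right, percent of cells with reads of 10 or more of these genes at 100000 reads a cell (bars start at 0, error bars are exact 95% intervals), where conflicting means a title of E11.5 with a stage field of E10.5: the E11.5 HE bar is at 9.38% and the E11.5 Endo bar at 64.3%.

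Mitosis genes are given for the other HE and Endo pairs side by side. At E10.5, thinned cells with 10 or more mitosis genes made up 51 of 79 HE (64.6%, interval 52.99 to 74.999%) and 53 of 73 Endo cells (72.6%, interval 60.9 to 82.4%). Of 20 expressed mitosis genes, 1 was at least 2-fold higher and 0 lower in E10.5 HE, against 6.39% higher and 4.34% lower among its 8987 expressed genes. The median log2 ratio was 0.26 at E10.5 and -2.40 at E11.5. In cells titled E11.5 with a stage field of E10.5, the marks were 8 of 38 HE (21.1%) and 14 of 40 Endo (35%), with 0 of 18 genes higher and 4 lower. Among all 8273 expressed genes of that pair, 5.05% were higher and 6.58% lower. Embryos and depth differ between these sets, and whether the HE to Endo difference itself differs was not tested.

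Of 16 expressed cholesterol synthesis genes 8 were at least 2-fold lower in HE and 0 higher (median log2 ratio -1.41). Sqle, squalene epoxidase, had 25.6 CPM in HE and 150 CPM in Endo, and Hmgcs1, an early enzyme of the pathway, 42.56 and 206.2 CPM. Of 15 glycolysis genes 6 were lower and 1 higher (median -0.74). Pkm, pyruvate kinase, was at 0 to 559 CPM over HE cells (median 171.7) and 248.3 to 1431 over Endo cells (median 894), with overlap. None of 20 oxidative phosphorylation genes reached 2-fold, while their median was -0.55.

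Of 23 expressed extracellular matrix genes 9 (39.1%) were at least 2-fold higher in HE and 3 (13.04%) lower, the latter close to the 14% of all expressed genes. Their median log2 ratio was 0.50. Fn1, fibronectin, was at 1278 to 9113 CPM over HE cells (median 3480) and 0.53 to 5126 over Endo cells (median 214.9), and its highest Endo value belonged to the Gja5 cell, without which the Endo sum fell from 401 to 223.8 CPM. Fbn1, fibrillin, had 745 and 38.8 CPM, Eln, elastin, 221.8 and 8.43 CPM, and Ltbp1, a TGF-beta binding protein, 541 and 21.04 CPM. Col15a1, a basement membrane collagen, had 2.50 CPM in HE and 83.4 CPM in Endo. Of 12 expressed tip cell and sprouting genes 6 were lower and 1 higher (median -1.02). Kcne3, a potassium channel subunit, had 0.21 and 385 CPM, and 1 Endo cell held 77.7% of its Endo reads. Apln, the ligand of the apelin receptor, was read in 6 Endo and 0 HE cells.

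Of 11 expressed VEGF and angiopoietin genes 6 were at least 2-fold higher in HE and 2 lower (median log2 ratio 1.46). Vegfc, a ligand, had 332 and 48.3 CPM (30 CPM in Endo without the Gja5 cell), Nrp1, a co-receptor, 1027 and 232.6 CPM, and Tek, the angiopoietin receptor, 1250 and 455 CPM. Flt4, the receptor of Vegfc, was among the lower genes. Of 18 BMP and TGF-beta genes 6 (33.3%) were higher and 2 (11.1%) lower, beside 17.2% and 14% of all expressed genes (median 0.70). The intracellular inhibitors Smad6 (104.3 and 11.6 CPM) and Smad7 (90.7 and 20.6 CPM) were higher in HE, and the ligands Bmp4 (1.67 and 42.7 CPM) and Tgfb2 (3.26 and 36.5 CPM) lower. Of 12 interferon and inflammatory genes 6 were higher and 1 lower (median 1.04). Ifitm1, an interferon-induced membrane protein, was read in 22 HE and 2 Endo cells, and Ifitm3 was read in all 32 HE cells (141.8 to 1480 CPM).

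The 15 lowest genes in HE were Aplnr, Gng2, Kcne3 and Nr2f2, described above, and 11 others. Tmem255a was read in 13 Endo cells (median 493 CPM, highest 847) and in 1 HE cell at 15.2 CPM. Piezo2, a mechanosensitive channel, was read in 13 Endo and 0 HE cells, at 168.97 CPM in Endo. Stab2, a scavenger receptor of sinusoids, summed to 284 CPM in Endo with reads in 8 cells, and its log2 ratio went from -7.89 to -6.07 without Endo cell 6. Gpr183, an oxysterol receptor, was read in 8 Endo cells, Rgcc in 7, Cd36, a fatty acid transporter, in 6, Adamts9, a protease, in 8 and Hecw2, a ubiquitin ligase, in 9, all with 0 HE reads. Flrt2, Tln2, which encodes talin 2, and Apold1 were each read in 1 HE cell. The next gene in order was Nrp2, with a log2 ratio of -6.26, as for Hecw2.

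**Figure D4:**
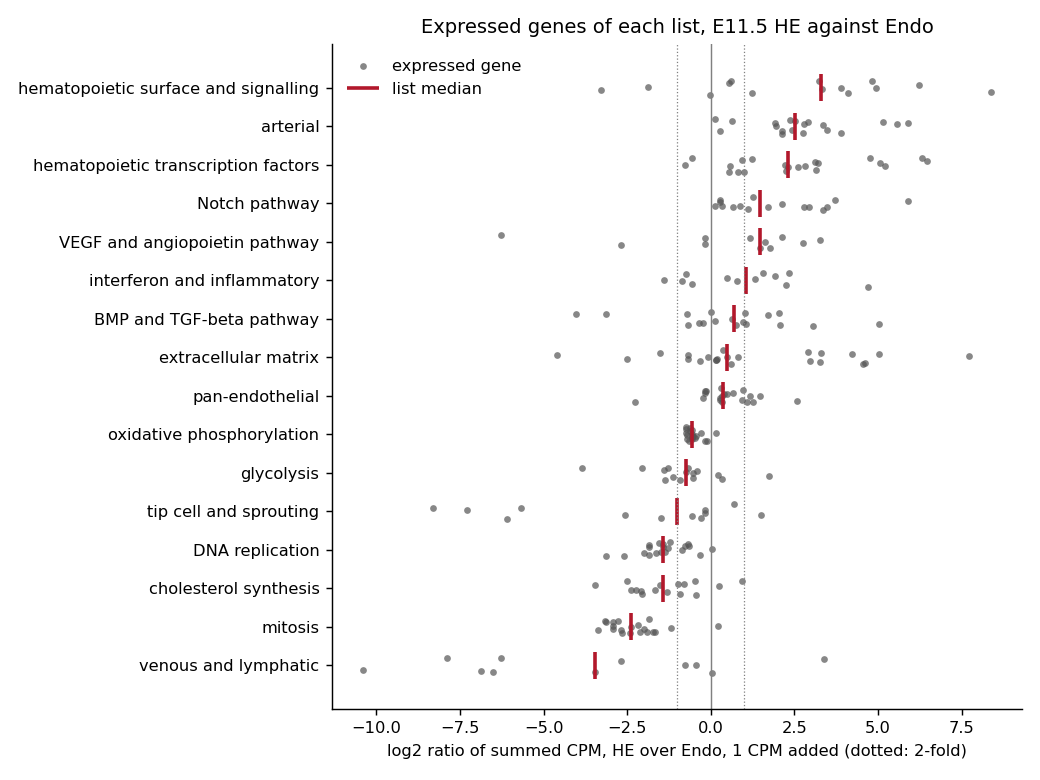
Each grey point is an expressed gene and each red line a list median, with the log2 ratio of summed CPM (HE over Endo, 1 CPM added) on the horizontal axis and 16 gene lists on the vertical axis. The median is 3.28 for hematopoietic surface and signalling genes and 2.51 for arterial genes, and it is -2.40 for mitosis and -3.45 for venous and lymphatic genes.

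Markers of other cell types were mostly read more in HE, by their sums. The erythroid list (13 genes) summed to 0 to 5355 CPM over HE cells and 0 to 85.5 CPM over Endo cells. Its 3 expressed genes, Hbb-y, Hbb-bh1 and Epor, were all at least 2-fold higher in HE, and 1 HE cell held 84.99% of the Hbb-y reads. Hbb-y and Hbb-bh1 are among the 7 globin genes of the cell filter, so their values are only what that filter let through. The adult globins Hbb-bs (0.36 CPM) and Hbb-bt (5.51 CPM) were each read in 1 HE cell and at 0 in Endo, while Hba-a2, Slc4a1 and Klf1 were at 0 in both sorts. The macrophage list (12 genes) reached 407 CPM in an HE cell and 171.99 CPM in an Endo cell, with Lyz2 in 8 HE and 0 Endo cells. Tyrobp, Fcgr1 and the 3 C1q genes were at 0 in both sorts, and Csf1r at 0 in HE.

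The smooth muscle and pericyte list (13 genes) reached 2853 CPM in an HE cell and 284 CPM in an Endo cell. Acta2, Myl9 and Notch3 were at least 2-fold higher in HE and Abcc9 lower. Tagln (0.73 CPM, 6 cells) and Cnn1 (1.17 CPM, 3 cells) were read in HE and at 0 in Endo. Pdgfrb and Rgs5, which mark pericytes, were at 0 in both sorts, and Myh11, a defining smooth muscle gene, was at 0 in HE with 1 read in Endo. The mesenchyme list (15 genes) reached 873 and 161.6 CPM, and 0 of its genes were expressed by the rule. Over the sorts, HE before Endo, the erythroid list summed to 229.8 and 12.5 CPM and the macrophage list to 65.4 and 31.3 CPM. The smooth muscle list summed to 432 and 88.9 CPM and the mesenchyme list to 102.8 and 7.48 CPM.

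Neuronal and epithelial lists also had few expressed members. Gata3 (108.1 and 2.49 CPM) and Stmn2 (383 and 61.6 CPM) were the 2 of 11 sympathetic and neural crest genes past the expression rule, both higher in HE, while Th and Dbh were at 0 in both sorts. The list reached 2476.5 CPM in an HE cell and 372 in an Endo cell. Of 10 epithelial genes Krt18 alone was expressed, and Cdh1 was at 0 in both sorts. Cldn7 (9.10 CPM, 4 cells), Esrp1 (5.16 CPM, 1 cell) and Cldn6 (0.01 CPM, 1 cell) were read in HE and at 0 in Endo. The megakaryocyte list (10 genes) had Vwf and Gp1ba, a platelet receptor subunit, as its 2 expressed genes. The part of other cell types in the differences above was not tested.

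The named genes kept their direction in the other HE and Endo pairs, with smaller ratios in most cases. At E10.5 (79 HE and 73 Endo cells of the same genotype), 12 of the 15 highest genes were at least 2-fold higher and 13 of the 15 lowest at least 2-fold lower by the same rule. The remaining 5 were not expressed by the rule. Among all 8987 genes expressed at E10.5, 6.39% were higher and 4.34% lower. Median log2 ratios over the 15 were 7.07 at E11.5 and 4.34 at E10.5 for the highest genes, and -6.99 and -3.94 for the lowest. In the pair titled E11.5 with a stage field of E10.5 (38 and 40 cells), 10 of 15 and 10 of 15 met the rule, against 5.05% and 6.58% of its 8273 expressed genes. Its medians were 1.59 and -4.06. All 30 genes had the same sign in the 3 pairs. Selection on the E11.5 values favours large ratios there.

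Single genes show where these pairs differed. Aplnr was at 0.01 CPM in E11.5 HE, 24.1 in E10.5 HE and 29.6 in HE of the disagreeing labels, and at 1355, 792 and 319 CPM in the matching Endo sorts. Gja5 was at 103.7 CPM in E11.5 Endo, 160.2 in E10.5 Endo and 685 in Endo of the disagreeing labels, where 60% of cells had reads. Gfi1 was read in 7.50% of those Endo cells and in 0% of E11.5 and E10.5 Endo cells. When the cells of disagreeing labels were added to both sorts (70 HE and 54 Endo cells), 507 of 8452 expressed genes were at least 2-fold higher in HE and 518 lower. Of the genes at least 2-fold higher without those cells, 457 of 1582 were so again, and 468 of 1285 of the lower genes, with 0 on the opposite side. By list, this held for 4 of 16 arterial, 4 of 10 Notch and 12 of 14 hematopoietic factor genes, and for 13 of 19 mitosis and 5 of 14 replication genes. The hematopoietic factors include Gfi1, which followed from the gate.

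Embryo sex was addressed by keeping only cells with Y-linked and without Xist reads, 27 HE and 7 Endo cells, an alternative chosen after the data were seen. All 34 called genes tracked kept their sign and remained at least 2-fold different by the summed reads. Most of them had been picked for the largest ratios of these data, so this check was weak. Of the genes at least 2-fold higher among all cells 1280 of 1582 were so again, and of the lower genes 1010 of 1285, with 1 gene on the opposite side. Arterial genes were higher in 16 of 19 and mitosis genes lower in 18 of 20, beside 1974 higher and 1604 lower of all 9360 expressed genes. The Endo cell with Gja5 (3943 Xist and 0 Y-linked reads) was not in this subset. There the Gja5 log2 ratio was 9.40 and the arterial median 3.59. A change of sex and the loss of that cell cannot be told apart here.

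**Figure D5:**
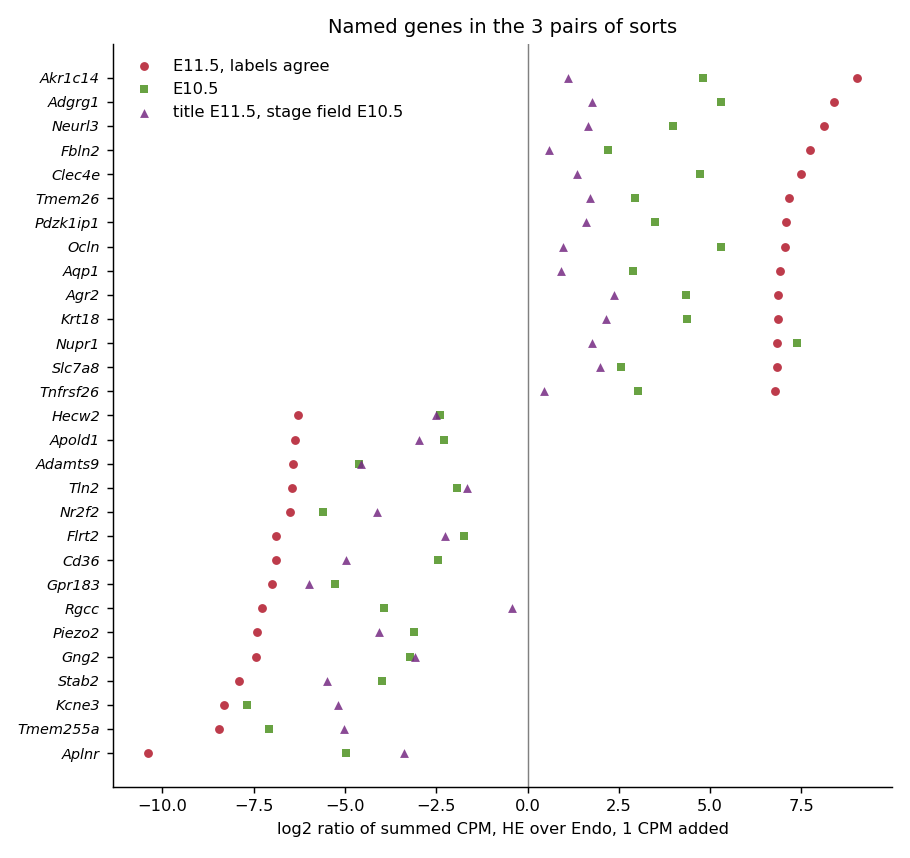
Log2 ratio of summed CPM (HE over Endo, 1 CPM added) on the horizontal axis for 14 of the 15 highest and for the 15 lowest E11.5 genes, in the E11.5 pair (red circles), the E10.5 pair (green squares) and the pair titled E11.5 with stage field E10.5 (purple triangles). Each gene shown lies on the same side of 0 in the 3 pairs, and the medians over the 15 highest are 7.07, 4.34 and 1.59.

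IAHC cells of E11.5, the clusters that bud from HE, were kept in 7 of 22 cases, since 14 were rich in globin and 1 was a repeat of an HE library. Their summed levels were 205.5 CPM for Runx1, 61.32 for Gfi1, 768 for Kit and 765 for Adgrg1, against 64.7, 78.9, 168.3 and 348 CPM in HE. Gja5 was at 113.2 CPM and Gja4 at 137.9 CPM in IAHC, against 791 and 1968 CPM in HE. Akr1c14 and Agr2, among the highest HE genes, were at 0 in IAHC. Thinned as above, 3 of 7 IAHC cells had reads of 10 or more mitosis genes (42.9%, interval 9.90 to 81.6%).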

How the data were processed

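Smart-seq2 libraries of single sorted cells were analysed from the deposited table of gene read counts, which holds raw counts, as its whole numbers and differing totals show. Per the submitters' processing notes, the tools were STAR 2.4.2a, HTSeq 0.6.1p1, bcl2fastq and R 3.6.2, and the build was GRCm38. Annotation and strand setting are not given in the sources used. Overlapping and antisense genes therefore cannot be told apart, and reads of near-identical globin copies may be split. PCR copies were not collapsed by molecular identifiers, and all intervals therefore cover counting error only.

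The last row of the table as read was incomplete. The 36131 genes in the complete rows were analysed, those with later identifiers were not, and totals, CPM and counts of genes cover the complete rows only. Of the table, 957 of 1288 cell columns were not used. Cells with under 100000 reads or at least 1% globin reads were left out, as were cells whose stage labels disagree, other than in the side-by-side values. Library pairs with a Pearson r of at least 0.9 over genes (log2 of CPM + 1, libraries of at least 10000 reads) were taken as repeats of 1 cell: reads were added within a sort, and libraries whose labels disagreed on the sort were left out. No search for doublet wells was made. Reads were summed over the kept cells of a sort and scaled to CPM, with exact Poisson and Clopper-Pearson 95% intervals. Genes counted as higher or lower with at least 2-fold by the summed and by the mean per-cell CPM, 1 CPM added. Where a sort had no read, 3 reads were taken as the floor, and bounds from it cover the counting of reads only. Named genes were the 15 highest and 15 lowest ratios among those with at least 20 CPM (mitochondrial, ribosomal, unnamed, pseudogene and sex-linked marker genes left out), the marker and gate genes, the 5 largest ratios of each list and pan-endothelial genes; further members were named to show their role. Values of 1 gene of the 15 highest and of 2 list members are not reported here. The 35 gene lists, the members and the rule were chosen with earlier results of these data known. Gene positions are of GENCODE and promoters of RefSeq, both on GRCm38. Alternatives covered the cell filters, scaling (edgeR 4.0.16 TMM factors in R 4.3.3), floors, added CPM, thinning and leaving out each cell. The steps ran in Python 3.11.15 with numpy 2.4.6, pandas 2.3.3 and scipy 1.17.1 and were tested on simulated data.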

Additional observations from a re-analysis of the deposited data

How the results depend on the processing

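The counts of genes at least 2-fold higher (1582) and lower (1285) in HE moved past 1.5 times in 3 settings. At 4-fold they were 638 and 469, with no minimum share of cells the higher count was 2507, and with the cells of disagreeing stage labels they were 507 and 518. Leaving out each cell in turn gave 1542 to 1700 and 1209 to 1336. Per-cell means gave 1712 and 1422, thinning 1595 and 1407, TMM factors 1614 and 1259, and Y-linked cells only 1974 and 1604. The last setting, and counting repeat libraries as cells of their own (36 HE cells, 1549 and 1273), were chosen after the data were seen. All 34 called genes tracked kept their sign and stayed at least 2-fold different in each setting, by 1 of the 2 measures alone. By the full rule, Cxcl12 was no longer called higher once the cells of disagreeing labels were added. The smallest log2 ratio was 1.67 (Gja5, with the disagreeing labels added). Most of the 34 genes were the 15 highest and 15 lowest ratios of these same data, so staying past 2-fold was nearly fixed beforehand. Keeping globin-rich cells, or asking for at least 10 pan-endothelial genes in a cell, changed no cell, so these 2 settings checked nothing. The 1 globin-rich HE library was a repeat and stayed out, and every kept cell had 16 or more pan-endothelial genes. List medians of the flow, stress, imprinted and IGF genes changed sign in at least 1 setting. No paired analysis was possible because each sort is 1 sample and the labels give no embryo or replicate number that links the sorts. Genes with reads in few of the 14 Endo cells rest on single cells, and a value of 0 there is a limit of depth and cell number, not of absence.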

Other observations

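Gene groups outside the comparisons above are given here by their counts, beside 17.2% higher and 14% lower among all expressed genes. Of 14 flow response genes 4 were at least 2-fold higher in HE and 1 lower (median log2 ratio 0.15). Edn1, the vasoconstrictor endothelin, had 694 CPM in HE and 47.5 CPM in Endo, of which 1 Endo cell held 69.2%, and without that cell the Endo sum was 15.15 CPM. Klf2 and Klf4, transcription factors of sheared endothelium, had 350 and 95.2 CPM in HE against 137.4 and 22.4 CPM in Endo. Of 13 junction genes 3 were higher (23.1%) and 1 lower (7.69%), not far from the shares over all genes. Of 7 caveola genes 2 were higher and 0 lower. Cav1, the main caveolar coat protein, was read in 17 of 32 HE and 14 of 14 Endo cells, at 284 and 379 CPM.

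Imprinted growth genes were abundant in both sorts. Mest, a paternally expressed gene, had 804 CPM in HE and 5389 CPM in Endo, with 0 to 6056 CPM over HE cells (median 461) and 1019 to 9931 over Endo cells (median 5072). Igf2 had 7509 and 3319 CPM and H19, its maternally expressed neighbour, 4975 and 2026 CPM. Igf1 went the other way at 4.61 and 226.5 CPM, with 97.96% of the HE reads in 1 cell. Of 8 expressed Hox genes 3 were at least 2-fold higher in HE, among them Hoxa9 (195.6 and 38.8 CPM), and Hoxd9 was lower. Of 10 Wnt genes 5 were higher, namely Dkk2, a secreted inhibitor (113.1 and 3.28 CPM), Sfrp1, Sfrp2, Fzd6 and Lrp6, and Lef1, a transcription factor of the pathway, was at 0 in HE and 17.4 CPM in Endo. Of 14 immediate early and stress genes 3 were higher (21.4%, beside 17.2% of all expressed genes) and 0 lower. The 3 were Fosb (37.6 and 14.3 CPM), Jund (21.04 and 5.13 CPM) and Nupr1.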
